A study of Mus musculus with 16 samples.

Results

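Gastrocnemius, a calf muscle of the hindlimb, was compared with triceps, a muscle of the upper forelimb, in mice that carry human SOD1 with the G93A substitution. The arrays were chosen by genotype and muscle as labelled: 4 of gastrocnemius and 4 of triceps, 8 of the 16 arrays of the series. Both muscles were taken from each of 4 mice, and the replicate number marks the mouse, so each mouse gave a difference of its own. All mice were female C57BL/6 aged 7 weeks, called presymptomatic by the submitters. The transgene encodes superoxide dismutase 1, an antioxidant enzyme, and its mutant form is used to model amyotrophic lateral sclerosis (ALS), in which motor neurons die. Non-transgenic mice (NTg), 4 with both muscles, appear here only beside the transgenic values. The labels give neither the promoter of the transgene nor which head of either muscle was taken.

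Skeletal muscle is a mosaic of fibres. Slow fibres contract with the beta myosin heavy chain encoded by Myh7, use slow forms of troponin and of the myosin light chains, and burn fat and sugar in mitochondria. Fast fibres use other members of the same gene families and draw more on glycolysis. The gastrocnemius is used in standing and walking and has a deep, red portion with slow fibres, and the motor neurons of fast fibres are known as the earliest to withdraw in SOD1-G93A mice.

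A probe set is a group of short probes that reads a transcript, and its signal is given on the log2 scale, on which 1 unit is a doubling. Of the 7729 probe sets in the table, 4637 had a mean over all 16 arrays above log2 6.75, here called the filter level, and were tested. Of 19 genes on a list of skeletal muscle fibre markers, 15 were in the table and all of those were tested, and their mean signal was between 11.47 and 11.75 in the gastrocnemius arrays and between 11.05 and 11.65 in the triceps arrays. Of 23 genes that mark position along or between limbs, 1 was bright enough to be tested, so the labelled limb was not checked. Among the transgenic triceps arrays, that of mouse 2 stood apart in the most abundant muscle transcripts. Ckm, the creatine kinase of muscle, had a signal of 12.76 there and between 13.84 and 14.51 in the other 3. In the triceps of NTg mice 1 to 4 it was at 12.84, 13.02, 14.42 and 14.21. Low values were thus not limited to that array. Where leaving out transgenic mouse 2 changed the call of a gene followed through the alternative settings, the text says so.

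The question was which transcripts separate the 2 muscles in the transgenic mice. Genes of slow fibres were far higher in gastrocnemius, together with myelin genes and a few genes of oxidative metabolism. Genes higher in triceps were fewer and differed less, with the antioxidant enzyme Gpx3 among them. In the paired fit with limma, 71 of 4637 probe sets (1.53%) passed the threshold, an adjusted p (Benjamini-Hochberg) under 0.05, and are here named called, 50 higher and 21 lower in gastrocnemius. The differences exceeded 2-fold in 32 of the higher and 10 of the lower ones. All 71 had the same direction in 4 of 4 mice, and in 58 of them the values of the 2 muscles did not overlap, as in 385 of all 4637 probe sets (8.3%). With 1 probe set a gene, the brightest, 32 of 3034 genes (1.05%) were called higher in gastrocnemius and 11 (0.363%) lower. The median difference of all tested probe sets was -0.01. At an unadjusted p under 0.05 there were 523 of the 3034 genes (17.2%), 251 higher and 272 lower, which is the background for the unadjusted counts given below. Of the 50 higher calls, 37 had their smallest difference in mouse 4 and 36 their largest in mouse 2. Without mouse 1 the count was 40, without mouse 3 it was 41, and without the pairing it was 42.

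Slow fibre genes led the list. Of 22 genes on the slow fibre list, 20 were in the table and 17 were tested, and 16 of these were called higher in gastrocnemius and 0 lower, beside the 1.05% of all genes. The median difference of the 17 was 2.86, and 3 further genes in the table were too dim to be tested. By mouse the median was 2.81, 3.76, 2.86 and 1.81 in mice 1 to 4. The list was drawn up with earlier results of these data known, so its direction is not independent evidence. As these are whole muscles, fewer slow fibres and less slow transcript per fibre cannot be told apart.

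Myh7, the myosin motor of slow fibres, was at 10.19, 11.33, 11.22 and 11.45 in the gastrocnemius of mice 1 to 4 and at 3.66, 1.70, 6.54 and 8.81 in their triceps. Every gastrocnemius value was above every triceps value, and the triceps of mouse 4 was the highest of its group. The mean difference was 5.87 (SE 0.81, adjusted p = 0.00295). Values under the filter level are dim, and 3 of the 4 triceps values lay there. With all values raised to the filter level the difference was 3.78, or 13.7-fold.

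The slow troponin complex, which switches contraction on when calcium binds, followed the same order. Tnni1, its inhibitory subunit, was at 8.93, 10.05, 9.97 and 10.00 in gastrocnemius and at 2.73, 3.40, 3.32 and 7.60 in triceps. Mouse 4 again had the highest triceps value, and its difference of 2.40 was the smallest. Tnnt1, the tropomyosin-binding subunit, was higher by 5.07 (SE 0.58, adjusted p = 0.00111), and Tnnc1, the calcium-binding subunit, by 4.15 (SE 0.45, adjusted p = 0.000697). Tnni1 was higher by 5.47 (SE 0.58, adjusted p = 0.000697). On floored values these 3 differences were 3.51, 3.53 and 2.77.

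The light chains of slow myosin behaved alike. Myl2, the regulatory light chain, was at 11.61, 12.68, 12.59 and 12.42 in gastrocnemius and at 4.85, 5.68, 7.56 and 10.03 in triceps, a difference of 5.29 (SE 0.58, adjusted p = 0.000725). Myl3, the essential light chain, was at 11.32, 12.37, 12.10 and 11.93 in gastrocnemius and at 7.12, 6.35, 8.22 and 9.36 in triceps. Most of its triceps values were above the filter level, so the difference of 4.17 (SE 0.39, adjusted p = 0.000421) rests less on dim signals. Its 2 other probe sets gave 4.67 and 4.04, and both were called.

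Tpm3, a tropomyosin of slow fibres, was higher by 3.58 (SE 0.32, adjusted p = 0.000286) by its brightest probe set and by 4.73 by another (2.91 and 2.65 on floored values), while the last probe set gave -0.11 (adjusted p = 0.776). Atp2a2, the calcium pump of slow fibres and heart, was at 10.45, 11.33, 11.41 and 11.17 in gastrocnemius and at 6.71, 6.61, 7.86 and 9.37 in triceps. Its difference of 3.46 (SE 0.34, adjusted p = 0.000491) was little changed on floored values (3.41). Another probe set of Atp2a2 gave 3.22 and was called (2.74 on floored values), while the last gave 0.53 (adjusted p = 0.27). Myoz2, which ties calcineurin to the Z-disc of slow fibres, shared the smallest adjusted p of all probe sets with a Myl3 probe set. It was at 10.54, 11.10, 10.90 and 10.82 in gastrocnemius and at 7.73, 7.34, 8.04 and 8.81 in triceps, a difference of 2.86 (SE 0.22, adjusted p = 0.000207) or 7.25-fold. All of its 8 values were above the filter level.

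One setting of the test ended calls among these genes. With limma's robust estimate of spread, adjusted p was 0.198 for Myh7, 0.109 for Tnni1, 0.149 for Myl2, 0.15 for Tnnt1, 0.116 for Myl3, 0.135 for Tnnc1 and 0.105 for Atp2a2, with the same differences. Those are genes whose difference varied from mouse to mouse, as between 2.63 and 9.63 for Myh7, and each was higher in gastrocnemius in 4 of 4 mice.

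**Figure D1:**
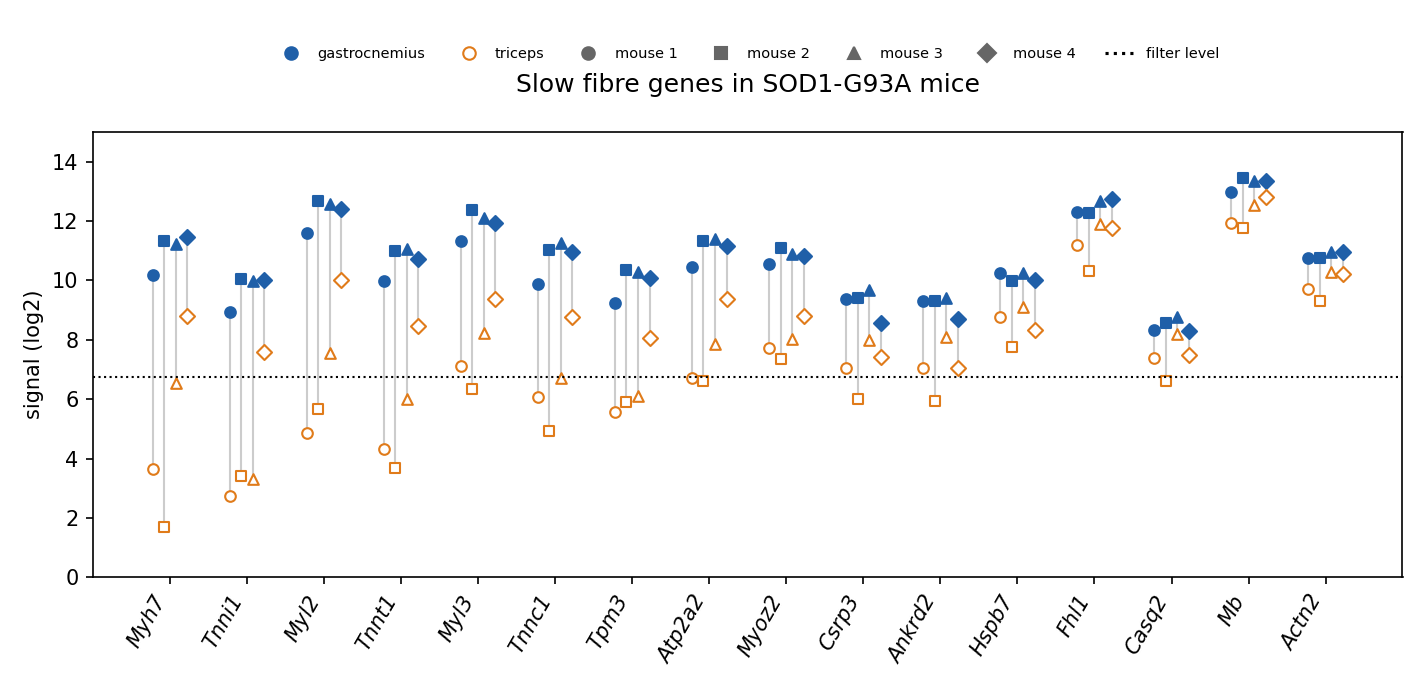
Signal (log2) of the 16 slow fibre genes called higher in gastrocnemius, by mouse, with filled symbols for gastrocnemius, open symbols for triceps and a line joining the muscles of a mouse; the dotted line is the filter level of 6.75. Gastrocnemius is above triceps in each of the 4 mice, and the triceps of mouse 4 has the highest Myh7, Tnni1, Myl2 and Tnnt1 of its group.

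The upstream sequences of 4 slow genes are printed to show where known muscle motifs lie in them, as examples chosen for holding such a match. They are the 250 bases before the start site from RefSeq, assembly GRCm38.p6, written 5′ to 3′ on the strand of the gene. Capitals mark matches to the MEF2 motif, bound by the myocyte enhancer factors, in Myoz2 and Casq2, and to the MCAT motif CATTCC on either strand, bound by TEAD factors, in Tnnc1 and Myl3.
Myoz2 (chr3:123034988-123035237, minus strand): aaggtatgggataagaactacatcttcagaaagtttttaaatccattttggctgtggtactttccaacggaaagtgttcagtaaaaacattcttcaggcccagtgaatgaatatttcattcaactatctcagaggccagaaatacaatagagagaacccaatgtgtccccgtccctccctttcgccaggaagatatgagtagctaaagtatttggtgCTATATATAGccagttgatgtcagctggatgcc
Casq2 (chr3:102086165-102086414, plus strand): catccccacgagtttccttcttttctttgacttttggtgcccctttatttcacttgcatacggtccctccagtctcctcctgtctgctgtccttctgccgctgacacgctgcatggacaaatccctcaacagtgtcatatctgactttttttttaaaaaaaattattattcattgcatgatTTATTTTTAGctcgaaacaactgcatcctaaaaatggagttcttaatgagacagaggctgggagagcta
Tnnc1 (chr14:31208062-31208311, plus strand): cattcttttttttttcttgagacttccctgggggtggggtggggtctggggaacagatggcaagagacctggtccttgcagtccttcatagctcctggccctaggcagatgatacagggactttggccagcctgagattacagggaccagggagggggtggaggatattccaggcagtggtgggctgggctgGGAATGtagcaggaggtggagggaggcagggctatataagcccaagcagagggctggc
Myl3 (chr9:110763428-110763677, plus strand): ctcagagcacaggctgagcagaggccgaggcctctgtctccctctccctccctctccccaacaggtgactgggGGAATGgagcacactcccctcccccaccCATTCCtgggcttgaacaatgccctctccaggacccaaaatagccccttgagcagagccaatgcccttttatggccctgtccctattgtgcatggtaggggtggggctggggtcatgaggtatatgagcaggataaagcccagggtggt

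Of the 16 called slow genes 15 had windows in the RefSeq set used, with 23 windows, since several have more than 1 start site. Any slow gene windows on 1 chromosome were left out, while the backgrounds kept that chromosome. A MEF2 match was in 2 of 23 windows (8.7%) in 2.92% of all 32851 windows of that length and in 1.93% of those of tested genes. For the other motifs these backgrounds follow in the same order. MCAT was in 3 of 23 (13%) against 12.6% and 11.4%, and TATAAA in 4 of 23 (17.4%) against 12.4% and 6.77%. The CArG motif, bound by serum response factor, was in 2 of 23 (8.7%) against 1.47% and 1.56%. The E-box CANNTG, the letters bound by MyoD and its relatives, was in 23 of 23 against 66.2% and 57.4%. Both strands were searched, the matches of different motifs may overlap, and windows of a gene overlap too. The shares describe letters and say nothing of binding.

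Several of the other slow genes sit at the Z-disc, the plate that anchors thin filaments, and respond to stretch or load. Csrp3, a LIM protein of striated muscle, was at 9.38, 9.40, 9.68 and 8.57 in gastrocnemius and at 7.06, 5.99, 7.98 and 7.41 in triceps, a difference of 2.15 (SE 0.29, adjusted p = 0.00275). Ankrd2, a stretch-responsive ankyrin repeat protein, differed by 2.14 (SE 0.28, adjusted p = 0.00236). Both were lowest in the gastrocnemius of mouse 4. Of 22 tested genes on the Z-disc and stretch list, 5 were called higher and 0 lower, with a median of 0.33, and these 5 (Myoz2, Ankrd2, Csrp3, Actn2 and Fhl1) are also on the slow fibre list. Actn2, an alpha-actinin found in all fibres, differed by 0.98 (SE 0.13, adjusted p = 0.00275), and Fhl1, a LIM-only protein, by 1.21 (SE 0.18, adjusted p = 0.00496).

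Hspb7, a small heat shock protein of heart and muscle, was at 10.26, 9.98, 10.25 and 10.03 in gastrocnemius and at 8.78, 7.77, 9.12 and 8.34 in triceps. The groups did not overlap, and the difference was 1.63 (SE 0.16, adjusted p = 0.000458). Of 25 tested heat shock and chaperone genes it was the 1 called, and their median was 0.03. Hsph1, a chaperone of the Hsp110 type, had a difference of -0.79 (adjusted p = 0.0738), and Hspa8, the constitutive Hsc70, one of -0.35 (adjusted p = 0.154). Other probe sets of Hspa8 gave -0.39 (adjusted p = 0.317) and -0.00285 (adjusted p = 0.996).

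Casq2, a calcium store protein of slow fibres, was higher by 1.07 (SE 0.21, adjusted p = 0.0334). Mb, the oxygen-binding myoglobin, was at 12.97, 13.46, 13.37 and 13.34 in gastrocnemius and at 11.93, 11.76, 12.53 and 12.80 in triceps, a difference of 1.03 (SE 0.18, adjusted p = 0.0192). Both calls were lost in some settings. Without mouse 1 adjusted p was 0.116 for Casq2 and 0.156 for Mb, without mouse 3 it was 0.0579 and 0.101, and without mouse 4 it was 0.0937 for Casq2. The tested slow gene that missed the threshold was Smtnl1, at 7.55 ± 0.28 (SD, n = 4) in gastrocnemius and 6.82 ± 0.33 in triceps (adjusted p = 0.100). Sln, a small inhibitor of the calcium pump, was too dim to be tested, at 6.10, 7.92, 8.49 and 7.24 in gastrocnemius and at 2.32, 4.28, 3.34 and 4.69 in triceps.

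Fast fibre genes did not mirror the slow ones. Of 22 genes on the fast fibre list 21 were tested, and limma called 0 in either direction, while 20 had a difference above 0. At an unadjusted p under 0.05 there were 8, 7 higher and 1 lower, beside 17.2% of all genes. Their median was 0.48, and by mouse it was 0.35, 1.23, 0.08 and 0.18, so mouse 2 stood far above the other transgenic mice. In NTg mice 1 to 4 the median by mouse was 0.92, 0.90, 0.06 and 0.06. Without transgenic mouse 2 the median in SOD1-G93A mice was 0.21. Under quantile normalization, which forces all arrays to the same distribution, it was -0.03, so no direction can be given for this family.

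The gene of the list nearest to a call was Myh2, the myosin of fast oxidative IIA fibres. It was at 13.39, 13.44, 13.28 and 13.49 in gastrocnemius and at 12.01, 10.63, 12.87 and 12.66 in triceps. The groups did not overlap, yet the low triceps value of mouse 2 widened the spread, and the difference of 1.36 (SE 0.31) had an adjusted p of 0.0633. Without mouse 2 it was 0.88 with an adjusted p of 0.00284. Myh4, the myosin of IIB fibres, was at 14.23, 13.97, 14.41 and 14.27 in gastrocnemius and at 13.77, 12.77, 14.40 and 14.24 in triceps, a difference of 0.42 (adjusted p = 0.35), or 0.16 without mouse 2. Myh1, that of IIX fibres, differed by 0.07 (adjusted p = 0.836). These last genes overlapped between the muscles, and the sign of both turned under quantile normalization.

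Set beside their slow or oxidative partners, the fast isoforms differed little. In each of 12 pairs of related genes that could be tested, the slow or oxidative member was called higher in gastrocnemius and the fast member was not called. The fast members had differences from 0.30 for Myoz1 to 0.68 for Tnnc2, with adjusted p from 0.229 to 0.469. In 3 of 4 mice these were small: Tnnc2, the fast calcium-binding troponin, was at 14.15, 14.26, 14.44 and 14.63 in gastrocnemius and at 13.64, 12.46, 14.34 and 14.32 in triceps. The value that stood apart was again the triceps of mouse 2. In the triceps of NTg mice 1 to 4 Tnnc2 was at 12.71, 12.93, 14.28 and 14.08. Without transgenic mouse 2 the differences of the fast members ran from -0.00704 for Casq1 to 0.31 for Tnnc2. Signals this high are near the top of the measured range, which ended at 14.81.

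**Figure D2:**
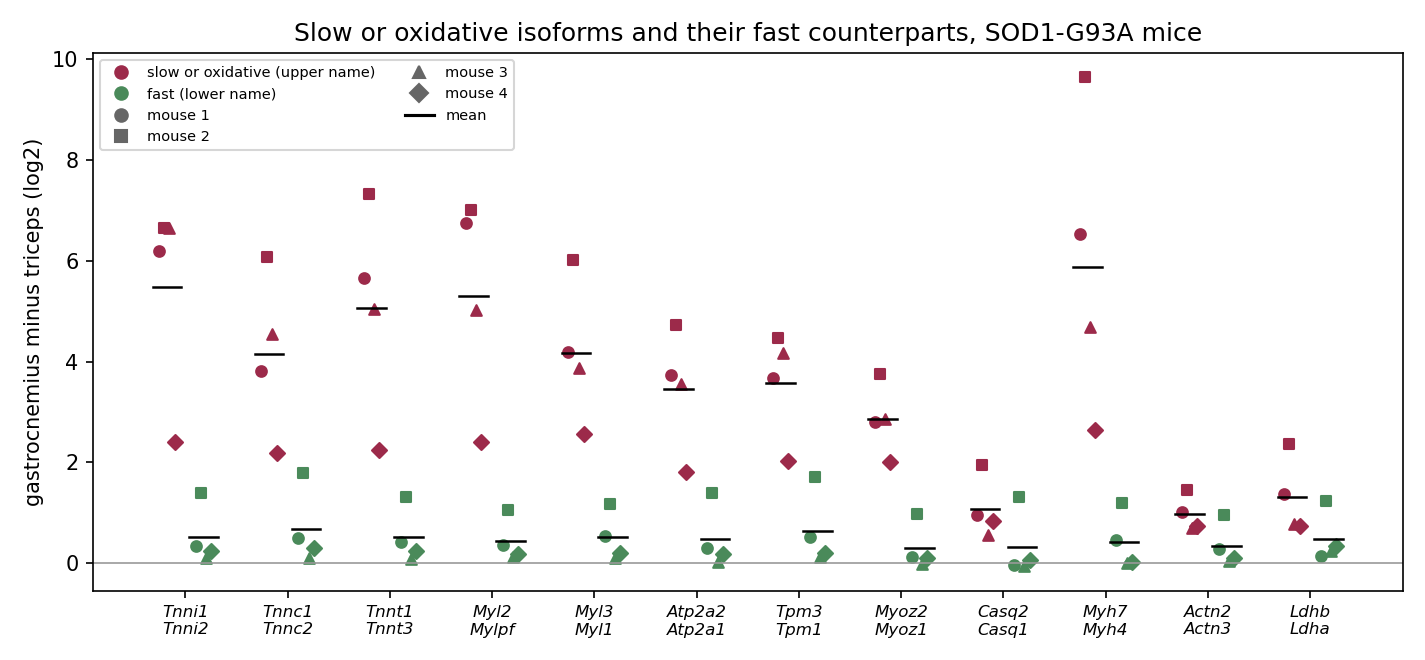
Gastrocnemius minus triceps (log2) in each of the 4 mice for slow or oxidative genes (upper name) and their fast counterparts (lower name), with the mean as a bar. The slow Myh7 spans 2.63 to 9.63, and the fast Myh4 spans 0.00 to 1.21.

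Genes of oxidative metabolism were called in small number. Idh2, the mitochondrial isocitrate dehydrogenase that makes NADPH, was at 9.18, 9.65, 9.75 and 9.52 in gastrocnemius and at 7.99, 8.06, 8.50 and 8.63 in triceps. The groups were well apart, and the difference was 1.23 (SE 0.13, adjusted p = 0.000697) or 2.34-fold. It was the 1 gene called of 22 tested on the citric acid cycle and malate shuttle list, whose median was 0.09. Nnt, the mitochondrial transhydrogenase that also makes NADPH and was chosen after its values were seen, was higher by 0.93 (SE 0.19, adjusted p = 0.0361). Its difference was smallest in mouse 4, and the call was lost without mouse 1 (adjusted p = 0.217), mouse 2 (0.0625) or mouse 3 (0.142).

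Of 27 tested genes of fatty acid uptake and oxidation, 2 were called higher and 0 lower, with a median of 0.22. Fabp3, the fatty acid carrier of heart and slow muscle, was at 10.70, 11.02, 11.60 and 11.21 in gastrocnemius and at 9.94, 10.01, 10.81 and 10.61 in triceps. The group ranges overlapped, but each mouse was higher in gastrocnemius, and the paired difference was 0.79 (SE 0.11, adjusted p = 0.00275, and 0.152 without the pairing). Lpl, the lipase that frees fatty acids from circulating lipoproteins, was at 11.47, 11.85, 11.52 and 11.58 in gastrocnemius and at 11.06, 10.90, 10.97 and 11.11 in triceps, a difference of 0.59 (SE 0.12, adjusted p = 0.0357). Its call was lost without mouse 1 (adjusted p = 0.135), mouse 3 (0.153) or mouse 4 (0.102). Another probe set of Lpl gave 0.75 and was not called (adjusted p = 0.0925). Acadm, a dehydrogenase of medium-chain fatty acids, differed by 0.37 (adjusted p = 0.0925, and 0.0422 without mouse 2), and Cd36, a fatty acid transporter, by 0.51 (adjusted p = 0.131). Other probe sets of Cd36 gave 0.35 (adjusted p = 0.268) and -0.04 (adjusted p = 0.941).

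Ldhb, the lactate dehydrogenase subunit of oxidative tissues, was the 1 gene called of 28 tested for glycogen use and glycolysis, whose median was 0.17. It was at 9.96, 10.45, 10.24 and 10.19 in gastrocnemius and at 8.59, 8.07, 9.46 and 9.45 in triceps by its brightest probe set. The difference was 1.32 (SE 0.23, adjusted p = 0.0138, and 0.0638 without mouse 1), and the 3 other probe sets, from 1.09 to 1.41, were all called. Ldha, the subunit of fast muscle, differed by 0.49 (adjusted p = 0.243).

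The respiratory chain showed many small differences and no call. Of 33 tested genes of complex I, 28 had a difference above 0, with a median of 0.12, 4 at an unadjusted p under 0.05 (fewer than the 17.2% of all genes would give) and a smallest adjusted p of 0.196. Of 44 genes of complexes II to V, 42 were above 0, with a median of 0.27 and 15 at an unadjusted p under 0.05, all higher, beside 17.2% of all genes. The closest to a call were Cox7a2l, an assembly factor of supercomplexes (0.47, adjusted p = 0.0977), and Cox8b, the muscle form of a cytochrome oxidase subunit (0.50, adjusted p = 0.148). Other probe sets of Cox7a2l gave -0.05 (adjusted p = 0.863) and 0.25 (adjusted p = 0.308). The median of complexes II to V was 0.64 in mouse 2 and between 0.04 and 0.25 in the others. In NTg mice 1 to 4 it was 0.43, 0.48, 0.10 and 0.08. The transgenic median was 0.10 without mouse 2 and 0.06 under quantile normalization. Of 38 cytosolic ribosomal protein genes 37 were above 0, with a median of 0.21, 11 at an unadjusted p under 0.05 (beside the same 17.2%) and 0 called, and under quantile normalization that median was 0.05. Of all 3034 genes 1475 were above 0, and the median of all was -0.01.

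**Figure D3:**
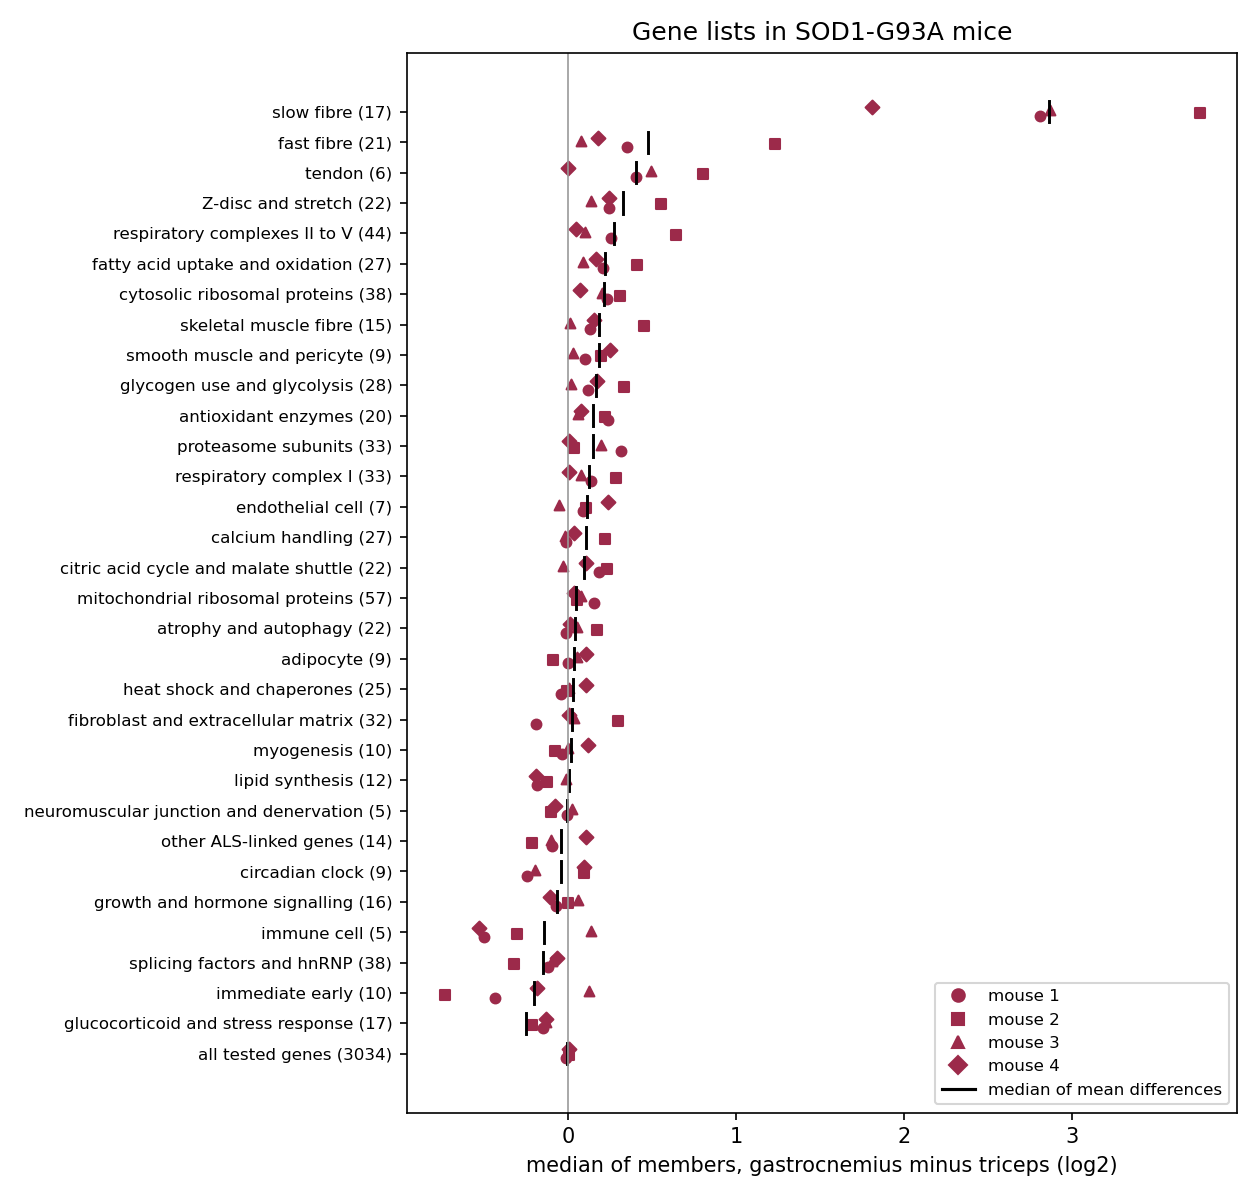
Median difference of the tested members of each gene list (gastrocnemius minus triceps, log2), with 1 symbol for each of the 4 mice and a bar for the median of the mean differences; the number tested is in brackets. The slow fibre list (bar at 2.86) stands to the right of every other list drawn, and mouse 2 lies to the right of the other mice for the slow, fast and complexes II to V lists.

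Myelin genes were higher in gastrocnemius. Mbp, the myelin basic protein of Schwann cells, was at 8.69, 8.92, 9.33 and 7.07 in gastrocnemius and at 6.69, 6.83, 6.66 and 6.18 in triceps. The gastrocnemius of mouse 4 was close to the triceps values, yet the groups did not overlap. The difference was 1.92 (SE 0.25, adjusted p = 0.00275), and its 2 other probe sets gave 1.59 and 2.04, both called. By the first probe set 3 of the triceps values were under the filter level. On floored values the differences were 1.73, 1.45 and 0.95 in the same order, so their size rests in part on dim signals. Pmp22, a membrane protein of compact myelin, was at 9.21, 9.70, 9.74 and 8.74 in gastrocnemius and at 8.45, 8.12, 8.29 and 8.15 in triceps, a difference of 1.09 (SE 0.17, adjusted p = 0.00759, and 0.077 without mouse 3). On the list of 18 Schwann cell and myelin genes 3 were in the table and 2 were tested, both called higher. Their mean signal was between 7.90 and 9.54 in the gastrocnemius arrays and between 7.16 and 7.57 in the triceps arrays. Erbb3, a receptor of Schwann cells and the other gene in the table, was below the filter level. Of 5 tested genes of the neuromuscular junction and denervation 0 were called, with a median of -0.01 and 1 at an unadjusted p under 0.05 (Dlg1, -0.58), near the 17.2% of all genes.

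The part of other cell types in the differences above was not tested. By the brightest probe set, limma called none of 9 adipocyte, 5 immune cell, 7 endothelial, 9 smooth muscle and pericyte, 32 extracellular matrix or 6 tendon genes. At an unadjusted p under 0.05 there were 4 adipocyte, 2 immune cell, 0 endothelial, 2 smooth muscle, 10 extracellular matrix and 5 tendon genes, beside 17.2% of all genes. Of these, 8 matrix genes were higher and 2 lower, and 4 tendon genes were higher and 1 lower. For adipocyte genes the split was 2 higher and 2 lower, for immune cell genes 0 and 2, and for smooth muscle genes 1 and 1. The numbers tested are small, and 2 of the tendon genes, Col1a1 and Col1a2, are also on the extracellular matrix list. The medians were 0.03 for adipocyte, -0.14 for immune cell, 0.11 for endothelial, 0.18 for smooth muscle, 0.02 for extracellular matrix and 0.40 for tendon genes. The mean signal of the adipocyte genes was between 9.88 and 10.59 in gastrocnemius and between 9.99 and 10.44 in triceps. That list holds Car3 and Cox8b, which averaged 14.09 and 12.81 in gastrocnemius and 13.55 and 12.31 in triceps. Adipoq, another member, averaged 8.58 and 8.46. The list mean thus does not measure adipocyte content alone. Lyz1, a lysozyme of myeloid cells, was lower in gastrocnemius by value (-0.85, adjusted p = 0.0816). Col1a1, a chain of type I collagen, was at 10.70, 10.40, 10.72 and 10.03 in gastrocnemius and at 10.14, 7.91, 9.89 and 9.79 in triceps. Its low value in the triceps of mouse 2 set the size of the difference, which was 1.03 with that mouse (adjusted p = 0.111) and 0.54 without it (adjusted p = 0.0291). Col1a2, the partner chain, gave 0.63 by its brightest probe set (adjusted p = 0.158) and 0.97 by another, which was called (adjusted p = 0.0361). Mgp, the matrix gene nearest to a call by the brightest probe set, gave 0.68 (adjusted p = 0.0534). It was called in 6 of 14 alternative settings. Of the 32 matrix genes 19 were above 0 and 13 below, from -0.60 to 1.03. The tendon genes ran from -0.68 to 1.03. Car3 of the adipocyte list gave 0.54 by its brightest probe set (adjusted p = 0.196), or 0.35 without mouse 2 (adjusted p = 0.0488). Another probe set of Car3 gave 0.74 and was called (adjusted p = 0.0231).

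Among other genes higher in gastrocnemius were 4 that meet the threshold and were chosen after their values were seen. Lmcd1, a LIM protein that acts with calcineurin in muscle, was at 10.02, 9.44, 10.26 and 9.55 in gastrocnemius and at 8.60, 7.41, 9.08 and 8.32 in triceps, a difference of 1.47 (SE 0.15, adjusted p = 0.000494). Pdlim1, a Z-disc protein that binds alpha-actinin, differed by 1.36 (SE 0.18, adjusted p = 0.0024). Lmod2, which lengthens thin filaments, differed by 1.05 (SE 0.13, adjusted p = 0.00229). Phlda3, a target of p53 that restrains Akt, was at 9.47 ± 0.14 (SD, n = 4) in gastrocnemius and 8.78 ± 0.14 in triceps, a difference of 0.69 (adjusted p = 0.00858). The groups did not overlap for any of the 4. The call of Phlda3 was lost without mouse 1 (adjusted p = 0.0959) or mouse 3 (0.0662). Ccn2, a secreted matrix protein and the 1 called gene of 10 tested on the immediate early list, was at 9.15, 8.58, 7.09 and 6.89 in gastrocnemius and at 8.41, 7.62, 5.93 and 6.14 in triceps. It varied more between mice than between muscles, and its difference of 0.90 (SE 0.17, adjusted p = 0.0231) was lost without any 1 mouse (adjusted p from 0.0534 to 0.179) and without the pairing (0.5). Fos and Egr1, transcription factors on the same list, had differences of -0.64 (adjusted p = 0.163) and -0.86 (adjusted p = 0.1).

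Gpx3, the secreted glutathione peroxidase, had the smallest p of the genes higher in triceps. It was at 9.89, 9.34, 9.71 and 8.88 in gastrocnemius and at 10.82, 10.78, 11.01 and 10.30 in triceps. Every triceps value was above every gastrocnemius value, and the difference of -1.27 (SE 0.11, adjusted p = 0.000286) put triceps 2.42-fold higher. Of 20 tested antioxidant genes it was the 1 called, while the list's median was 0.14. Prdx2, a peroxiredoxin, went the other way by value (0.49, adjusted p = 0.0977).

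E2f6, a repressor of the E2F family, was at 8.52, 8.77, 8.87 and 8.79 in gastrocnemius and at 9.73, 9.54, 9.69 and 9.51 in triceps. Its replicates were tight, and the difference was -0.88 (SE 0.12, adjusted p = 0.00275). Cd24a, a surface glycoprotein of progenitor and blood cells, was at 8.89, 8.97, 8.76 and 9.35 in gastrocnemius and at 10.26, 10.40, 9.68 and 9.76 in triceps. Its difference was -1.03 (SE 0.16, adjusted p = 0.0072, and 0.0525 without mouse 1 or 0.0522 without mouse 3). A second probe set was called too (-0.92), and the last was not (-0.35, adjusted p = 0.244).

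Tnfaip2, induced by tumour necrosis factor, was at 6.73, 7.23, 7.37 and 7.91 in gastrocnemius and at 8.16, 8.28, 8.53 and 8.60 in triceps, a difference of -1.08 (SE 0.16, adjusted p = 0.00643, and 0.0509 without mouse 3). Zfp503, a zinc finger repressor, was at 6.70, 6.67, 7.30 and 7.10 in gastrocnemius and at 7.54, 8.36, 8.13 and 8.27 in triceps, a difference of -1.14 (SE 0.19, adjusted p = 0.0125, and 0.0774 without mouse 4). Both were separated without overlap. Kcnc4, a voltage-gated potassium channel, differed by -1.28 (SE 0.25, adjusted p = 0.0294). Its gastrocnemius signal was partly under the filter level, and on floored values the difference was -0.86. Without mouse 3 its adjusted p was 0.131, and without mouse 4 it was 0.111.

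The calls of 4 other genes higher in triceps were lost when a mouse was left out. Itih5, which binds hyaluronan in the matrix, differed by -0.89 (adjusted p = 0.0135, lost without mouse 1 or mouse 4), Naa15, a subunit of an amino-terminal acetyltransferase, by -0.92 (adjusted p = 0.0357), and Lrig1, a brake on growth factor receptors, by -0.97 (adjusted p = 0.0361). On floored values Lrig1 differed by -0.54 (adjusted p = 0.124). The calls of Naa15 and Lrig1 were lost without any 1 mouse, with adjusted p of 0.0887 and 0.0829 without mouse 2. Another probe set of Naa15 gave -0.28 (adjusted p = 0.476). Tbx15, a T-box factor of limb and fast muscle that was chosen after its values were seen, was at 7.98, 7.61, 7.75 and 7.46 in gastrocnemius and at 8.33, 8.65, 8.46 and 8.51 in triceps. Its values did not overlap, and the difference was -0.78 (SE 0.16, adjusted p = 0.0361). That call was lost without mouse 2 (adjusted p = 0.0664), mouse 3 (0.124) or mouse 4 (0.13). Padi2, which converts arginine to citrulline in proteins, and Ubxn2a, a UBX domain protein, were also chosen after their values were seen. Padi2 differed by -0.78 (SE 0.14, adjusted p = 0.0217) and Ubxn2a by -0.84 (SE 0.16, adjusted p = 0.0307), and the muscles overlapped in both. Only 1 of Padi2 and Ubxn2a is among the 11 genes called lower by their brightest probe set. The call of the other gene rests on a probe set that was not its brightest.

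For 5 more genes the probe set called was not the brightest of the gene. A probe set of Xist, the RNA that silences an X chromosome in females, was at 5.95, 6.58, 6.80 and 6.63 in gastrocnemius and at 7.87, 8.30, 7.78 and 8.02 in triceps (-1.50, adjusted p = 0.00275), whereas the brighter one differed by -0.24 (adjusted p = 0.269). A probe set of the nuclear RNA Malat1 gave -1.51 (adjusted p = 0.00412), and its brightest gave -0.86 (adjusted p = 0.1, and -1.11 with 0.011 without mouse 2). Csnk2a1, a catalytic subunit of casein kinase 2, gave -0.94 (adjusted p = 0.0357) by 1 probe set and 0.25 by each of the other two. Wnk1, a kinase of ion transport, gave -0.85 (adjusted p = 0.0452) and -0.27, and Shisa2, a membrane protein of muscle precursors, gave -1.11 (adjusted p = 0.0192) and -0.76. In the fit of all 4 mice the probe sets of each gene differed in the call, and for Csnk2a1 in the direction. Whether they read different transcript forms was not tested.

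**Figure D4:**
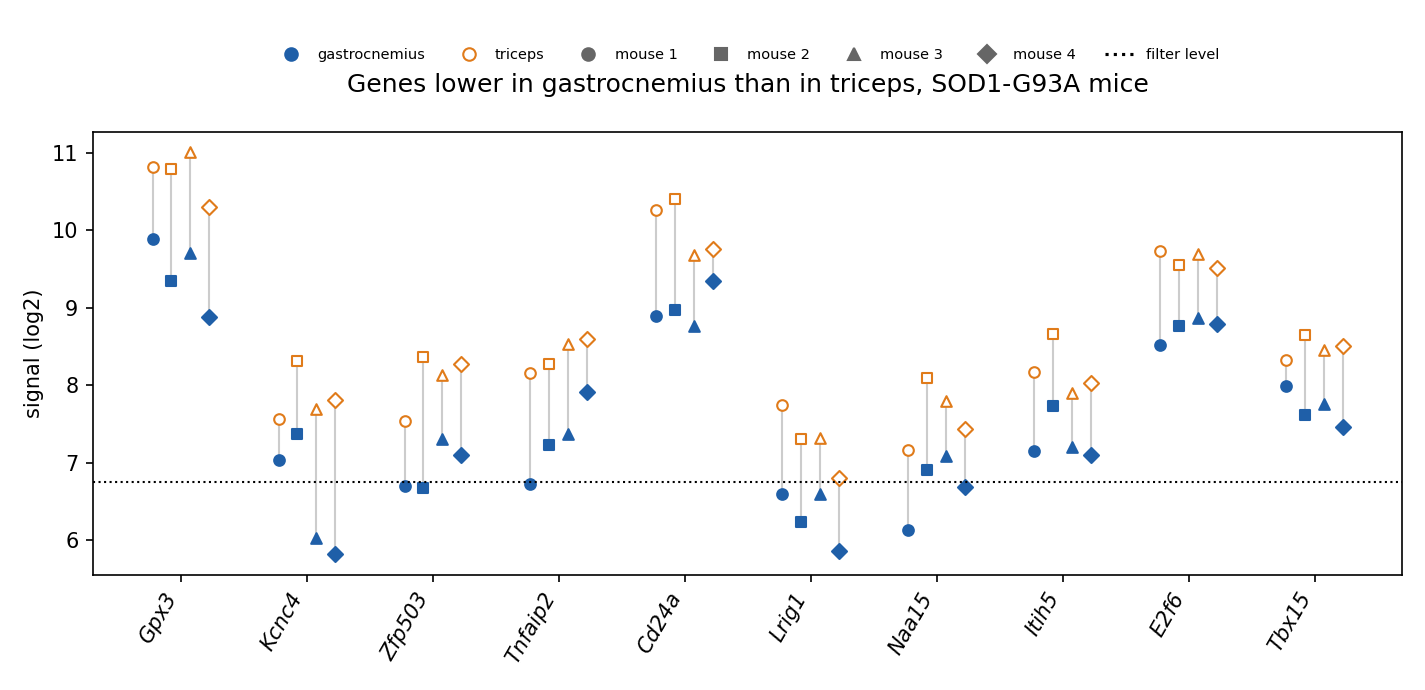
Signal (log2) by mouse of 10 genes called lower in gastrocnemius by their brightest probe set, drawn as for the slow genes, with the filter level of 6.75 dotted. Triceps (open) is above gastrocnemius (filled) in each of the 4 mice, and the largest mean difference of the 10 is that of Kcnc4 (-1.28).

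Sod1, the mouse gene of the same name as the transgene, was at 11.55, 11.31, 11.54 and 10.90 in gastrocnemius and at 11.06, 10.31, 11.37 and 10.89 in triceps. The ranges overlapped, and the difference of 0.42 (SE 0.15) had an adjusted p of 0.196. In NTg mice the difference was 0.53 (adjusted p = 0.354). Cross-reaction of this mouse probe set with human SOD1 RNA was not tested. None of 14 other ALS-linked genes and 22 genes of atrophy and autophagy was called, with medians of -0.04 and 0.04 and with 2 and 3 genes at an unadjusted p under 0.05, below the 17.2% of all genes. Splicing factors and hnRNP proteins, which bind nascent RNA, had 27 of 38 tested genes below 0 and a median of -0.15, with 0 called. At an unadjusted p under 0.05 there were 6, a share below the 17.2% of all genes. By the brightest probe set of each gene, Hnrnpa2b1 was the nearest to a call (-0.49, adjusted p = 0.115). Its other probe sets gave -0.65 (adjusted p = 0.0738), -0.60 (adjusted p = 0.0925) and -0.49 (adjusted p = 0.377).

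The last comparison set the transgenic mice beside the NTg mice, in which the same muscles were compared on other arrays. In NTg mice 47 of 4637 probe sets (1.01%) were called, 41 higher and 6 lower in gastrocnemius. Of the 71 calls in SOD1-G93A mice 41 were called in NTg too, which is 57.7% of the transgenic and 87.2% of the NTg calls, and all 41 had the same sign. The shared calls were mostly those higher in gastrocnemius: 38 of the 50 higher and 3 of the 21 lower were also called in NTg. By sign alone, 50 of 50 higher and 20 of 21 lower calls had the same direction in NTg. The exception was Csnk2a1. Across all 4637 probe sets the 2 sets of differences correlated at r = 0.79 (Spearman's rho 0.59), given as a description, since probe sets share their arrays.

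Myh7 was at 11.33, 11.25, 11.11 and 10.78 in NTg gastrocnemius and at 1.30, 2.40, 6.28 and 2.67 in NTg triceps, a difference of 7.95. All 4 NTg triceps values were under the filter level, and on floored values the difference was 4.36, against 3.78 in SOD1-G93A. The NTg triceps held no value as high as the 8.81 of transgenic mouse 4. Tpm3 was at 10.12 ± 0.35 (SD, n = 4) in NTg gastrocnemius and 5.44 ± 0.42 in NTg triceps, against 9.99 ± 0.52 and 6.41 ± 1.12 in transgenic mice. Atp2a2 was at 11.37 ± 0.23 and 6.79 ± 0.30 in NTg, against 11.09 ± 0.44 and 7.64 ± 1.29. Of the 50 probe sets called higher in transgenic gastrocnemius, 42 had a larger difference in NTg. Of all 4637 probe sets, 2030 (43.8%) had a difference that was higher in SOD1-G93A than in NTg. In some of the 42 the NTg difference was by far the largest in mouse 2. For the called Car3 probe set it was 0.67, 2.60, 0.63 and 0.15 in NTg mice 1 to 4. The NTg triceps arrays were the least alike of the groups, with a lowest correlation of 0.864. The slow fibre median was 3.62 in NTg and 2.86 in SOD1-G93A, and that of the fast fibre list was 0.49 and 0.48. In Mbp the NTg difference was 2.77 and in Pmp22 it was 1.42, against 1.92 and 1.09. On floored values that of Mbp was 2.16 in NTg and 1.73 in SOD1-G93A.

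None of these differences between genotypes passed the test. The interaction of muscle and genotype was called for 0 of 4637 probe sets (0%) in limma, with 150 at an unadjusted p under 0.05 and a smallest adjusted p of 0.998. No other setting of limma that was tried called any. For Atp2a2 the interaction was -1.12 (SE 0.45), for Tpm3 -1.10 (SE 0.46), for Hspb7 -0.85 (SE 0.33) and for Myh7 -2.08 (SE 1.30), all with an adjusted p of 0.998. With all signals raised to the filter level these became -1.07 for Atp2a2, -0.45 for Tpm3, -0.85 for Hspb7 and -0.58 for Myh7, so for Tpm3 and Myh7 most of the value lay in dim signals. The smallest unadjusted p was that of Nras, a small GTPase, at 7.67, 6.31, 7.28 and 6.64 in transgenic gastrocnemius and at 7.72, 7.82, 7.51 and 7.12 in transgenic triceps. In NTg mice it was at 7.91, 7.93, 7.20 and 7.31 in gastrocnemius and at 6.97, 6.87, 6.34 and 6.59 in triceps. Its muscle difference was -0.57 in SOD1-G93A and 0.89 in NTg, an interaction of -1.46 (SE 0.31, unadjusted p = 0.000515, adjusted p = 0.998). E2f6 and Itih5, called lower in transgenic gastrocnemius, differed by -0.16 and -0.27 in NTg, where neither was called. Their interactions were -0.72 (SE 0.27) and -0.62 (SE 0.20), also with an adjusted p of 0.998.

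**Figure D5:**
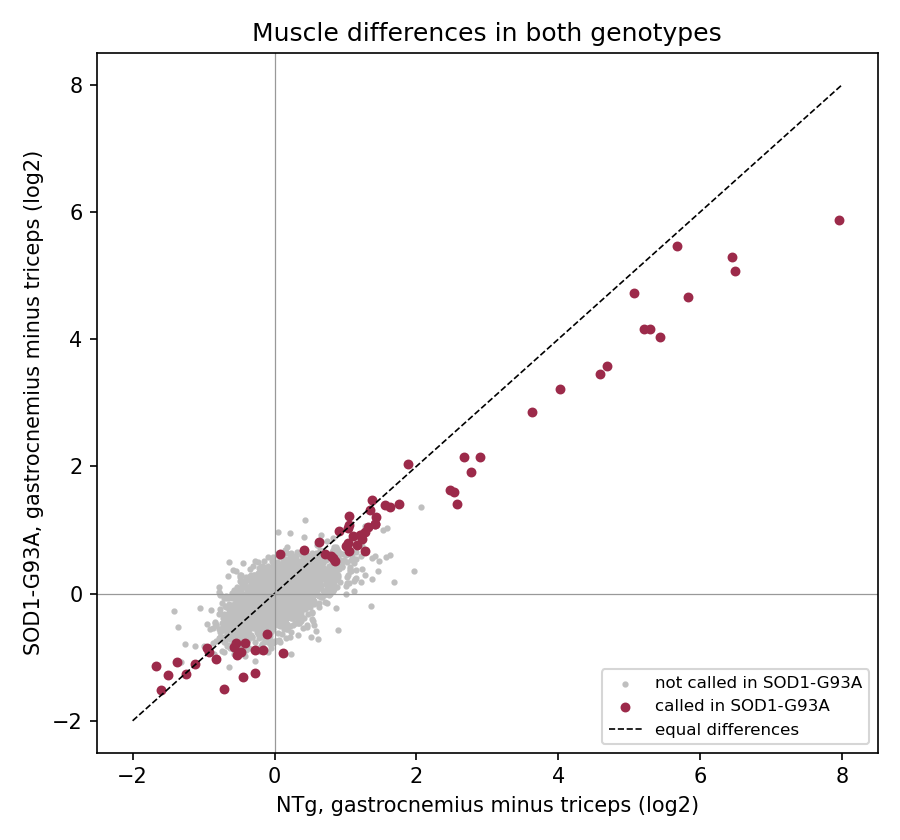
Gastrocnemius minus triceps (log2) of all 4637 tested probe sets in NTg mice (horizontal) and SOD1-G93A mice (vertical), with the 71 called in SOD1-G93A in red and a dashed line where both are equal. Of the 50 red points above 0, 42 have a larger NTg difference and lie under the dashed line. Of all 4637 probe sets 43.8% lie above that line.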

How the data were processed

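Total RNA from whole muscle was labelled from 4 ug and hybridised to Affymetrix mouse arrays, per the labels' protocols. The authors deposited 1 log2 value per probe set and array, made with MAS5, whose version is not given, per the submitters' processing notes. The base of the logarithm was read from the values, and how 7729 probe sets were chosen is not given in the sources used here. The table has no detection calls, and arrays have no read depth, so their number limits the precision. Symbols came from the platform annotation: 7053 probe sets had 1 symbol, 330 several and 346 none, and only the first kind were named.

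limma 3.58.1 in R 4.3.3 (lmFit, eBayes with an intensity trend) was fitted to the 8 transgenic arrays with the mouse as a fixed block, likewise to the 8 NTg arrays, and to all 16 for the interaction. Probe sets with a mean above the 40th percentile (6.75) were tested. The series' design text gives 4 mice of each genotype for both muscles. Same-numbered arrays correlated at 0.157 to 0.388 in transgenic and 0.136 to 0.328 in NTg mice, as deviations from group means. The highest correlation of a gastrocnemius array with another mouse's triceps was 0.00934 to 0.133 in transgenic and 0.0478 to 0.248 in NTg mice. The triceps of NTg mouse 1 correlated more with another mouse's gastrocnemius than with its own.

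Gene lists are described by counts and medians of the brightest probe set of each gene. The named genes are up to 15 per direction with the largest called differences, 5 per direction for the interaction, Sod1, the isoform pairs, 4 of smallest p in each list, and markers of cell types. Ckm, the genes whose text says so, and those of abundant muscle transcripts were picked later. The genes and lists were chosen with earlier results of these data known. The fit was tested on simulated data. The alternatives were other filters, normalizations, blocks and spread estimates, each mouse left out, and values floored at the filter level, which was added after seeing the data.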

Additional observations from a re-analysis of the deposited data

Results flagged for a closer look

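In groups of 4 values, 11 of 273 sets examined (4.03%) held 1 value whose gap to the nearest of the others was a large part of the whole range, where chance gives about 1 in 20. By mouse, 4 were of mouse 1, 3 of mouse 2, 0 of mouse 3 and 4 of mouse 4. Tnni1 stood apart in several ways: its gastrocnemius signal in mouse 1 was 8.93, with the next at 9.97, its triceps signal in mouse 4 was 7.60, with the next at 3.40, and its difference in mouse 4 was 2.40, with the next at 6.20. Ankrd2 in the gastrocnemius of mouse 4 was at 8.69, with the next at 9.31.

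In mouse 2 the difference of Myoz1 was 0.98, with the next at 0.12, that of Casq1 was 1.32, with the next at 0.07, and the triceps signal of Col1a1 was 7.91, with the next at 9.79. In mouse 4 the difference of Nnt was 0.38, with the next at 1.08. In mouse 1 the gastrocnemius signal of Malat1 by its brightest probe set was 5.68, with the next at 9.22, that of Mdh1 was 11.46, with the next at 11.60, and the triceps signal of Smtnl1 was 6.33, with the next at 6.92.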

How the results depend on the processing

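The count of 71 calls in SOD1-G93A mice stayed within 1.5 times under 9 of 10 alternatives of filter, normalization, block, spread and floor. Without the replicate block, so with the pairing ignored, it was 42, of which 8 were lower in gastrocnemius. The lower count was 13 with the filter at the 60th percentile. Leaving out 1 mouse at a time gave 40 to 83 calls, 31 to 59 of them higher and 9 to 24 lower. The share of calls higher in gastrocnemius was 70.4%, with a range from 63.4% with a robust spread to 81% without the block and 81.8% without mouse 4. The NTg count of 47 became 88 with all 16 arrays in 1 fit and 29 to 57 with a mouse left out. The interaction, which already uses all 16 arrays, had 0 calls under each of the other alternatives, with a smallest adjusted p of 0.969 to 1.0. Under quantile normalization the differences turned to -0.243 for Myh1, -0.0761 for Myh4, -0.0847 for Mylpf, -0.0297 for Myl1, -9.66e-05 for Tnnt3, -0.035 for Myoz1, -0.0354 for Atp2a1 and -0.0631 for Actn3. With 1 mouse left out, Myh1 ranged from -0.0516 to 0.154, Casq1 from -0.00704 to 0.449 and Adipoq from -0.046 to 0.212. The cause was not tested. Of 39 called genes followed, 13 kept their call in every alternative that tested them and 26 lost it in at least 1. Without the block 11 lost it (Casq2, Ccn2, Fabp3, Fhl1, Homer2, Itih5, Kcnc4, Lrig1, Mb, Naa15 and Nnt, adjusted p from 0.0556 to 0.5), and without the intensity trend 8 did. The call of Homer2 was also lost without mouse 2 (adjusted p = 0.0504). Signals under the filter level limit the size of the largest slow gene differences.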

Other observations

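Genes of the glucocorticoid and stress response were lower in gastrocnemius by value, with 13 of 17 tested below 0, a median of -0.25 and 0 called. At an unadjusted p under 0.05 there were 9, 7 lower and 2 higher, beside 17.2% of all genes. By mouse the median was -0.15, -0.21, -0.13 and -0.13, so it was below 0 in 4 of 4 mice, and in NTg mice it was -0.32 with 0 called. Cebpd, a transcription factor induced by glucocorticoids and inflammation, had a difference of -0.93 (limma adjusted p = 0.12), and Mt1, a metallothionein, had one of 0.66 (adjusted p = 0.0894). Lipid synthesis genes had a median of 0.01 over 12 tested, 3 at an unadjusted p under 0.05, all lower, and 0 called, and Fasn, fatty acid synthase, had a difference of -0.52 (adjusted p = 0.204) in SOD1-G93A mice and -1.36 (adjusted p = 0.0571) in NTg mice.

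Proteasome subunits were above 0 in 29 of 33 tested genes, with a median of 0.14 and 0 called. At an unadjusted p under 0.05 there were 6, 4 higher and 2 lower, near the background share. Mitochondrial ribosomal proteins were above 0 in 39 of 57, with a median of 0.05, 3 at an unadjusted p under 0.05, below that share, and 0 called.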
